A study of Homo sapiens with 6 samples.

Results

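The human genes descended from pogo-like DNA transposons were followed by RNA sequencing in SUM159, a cultured human breast cancer line of the triple-negative, mesenchymal-like kind. The family was taken by name from the deposited count table as POGK, POGZ, CENPB, JRK, JRKL, TIGD1, TIGD2, TIGD5, TIGD6 and TIGD7, and all 10 were present among its 18398 genes. POGK cells, 3 libraries, were stable cells overexpressing POGK, and control cells, 3 libraries, carried the empty lentiviral vector pLVX. The labels name the same vector for both groups and the same medium with insulin and hydrocortisone, and they do not say whether the cells are 1 clone. They also do not say that replicates were separate cultures, so the p-values rest on a spread between libraries that may be technical. The stated purpose of the comparison was to find genes regulated by POGK.

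Pogo elements move by cut and paste with a transposase that binds DNA through a helix-turn-helix domain and cuts it through a catalytic DDE domain. In the course of evolution several such transposases were kept by the host as ordinary genes. CENPB, the best studied, binds a short motif in centromeric alpha-satellite DNA called the CENP-B box. POGZ is a chromatin protein that binds the HP1 proteins and is mutated in a neurodevelopmental disorder. POGK carries in addition a KRAB domain, the module through which many zinc finger repressors recruit TRIM28. JRK is the human counterpart of mouse jerky, a gene whose disruption causes seizures in mice, and JRKL is its close relative. The functions of the TIGD genes, named after the Tigger elements, are little known.

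The genes share a build that the choice by name did not use. In the GENCODE release 44 annotation, which is on the same build (hg38) as the reads, 8 of the 10 have their whole coding sequence in a single exon, and CENPB, TIGD1 and TIGD5 consist of a single exon altogether. POGK and POGZ are the exceptions, with 4 and 18 coding exons. POGZ is also the longest, with 1410 codons, whereas the other members have between 521 codons in TIGD6 and 642 in TIGD5. POGK has 609 codons. POGK and POGZ lie on chromosome 1, at 166839447 to 166856359 on the plus strand and 151402724 to 151459494 on the minus strand. CENPB lies on chromosome 20, from 3783851 to 3786740 on the minus strand, and TIGD7 on chromosome 16, from 3298808 to 3305729 on the minus strand.

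A further feature, found in 4 of the 10 members among neighbours that do not overlap them, is the position of the start. Genes that overlap a member on the opposite strand were not examined for the position of their starts. How common such facing starts are over all genes was not counted. CENPB, JRKL, TIGD1 and TIGD2 each begin next to a gene that is read in the other direction, the starts lying 32 bases apart for CENPB and CDC25B, 33 for JRKL and CCDC82, 102 for TIGD1 and EIF4E2, and 135 for TIGD2 and FAM13A. RefSeq promoter windows on GRCh38.p14, which run from 250 bases before to 50 after a start, were found for 8 of the 10 members. Those of the 4 genes with a facing neighbour are given below, 5′ to 3′ on the gene's own strand, because both genes of each pair are compared further on. Capitals mark the bases that lie between the annotated starts of the pair. The windows are chr20:3786691-3786990 on the minus strand, chr11:96389763-96390062 on the plus strand, chr2:232550508-232550807 on the minus strand and chr4:89111283-89111582 on the plus strand.
CENPB: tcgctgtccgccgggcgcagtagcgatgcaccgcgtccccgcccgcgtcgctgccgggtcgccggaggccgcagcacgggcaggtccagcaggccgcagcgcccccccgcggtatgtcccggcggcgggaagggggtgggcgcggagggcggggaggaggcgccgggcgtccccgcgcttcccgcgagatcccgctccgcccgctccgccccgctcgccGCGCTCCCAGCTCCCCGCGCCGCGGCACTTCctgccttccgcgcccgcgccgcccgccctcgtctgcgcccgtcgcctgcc
JRKL: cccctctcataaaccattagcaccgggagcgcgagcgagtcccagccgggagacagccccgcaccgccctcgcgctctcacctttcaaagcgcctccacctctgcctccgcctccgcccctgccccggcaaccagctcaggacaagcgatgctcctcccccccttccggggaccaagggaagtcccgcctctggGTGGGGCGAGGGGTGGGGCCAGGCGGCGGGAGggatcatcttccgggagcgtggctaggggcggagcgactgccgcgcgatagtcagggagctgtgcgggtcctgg
TIGD1: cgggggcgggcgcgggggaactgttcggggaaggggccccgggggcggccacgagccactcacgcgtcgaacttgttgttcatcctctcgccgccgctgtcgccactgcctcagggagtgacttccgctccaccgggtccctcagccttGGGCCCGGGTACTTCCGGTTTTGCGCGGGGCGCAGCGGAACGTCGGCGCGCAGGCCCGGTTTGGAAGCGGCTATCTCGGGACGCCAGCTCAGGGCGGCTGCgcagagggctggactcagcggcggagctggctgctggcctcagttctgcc
TIGD2: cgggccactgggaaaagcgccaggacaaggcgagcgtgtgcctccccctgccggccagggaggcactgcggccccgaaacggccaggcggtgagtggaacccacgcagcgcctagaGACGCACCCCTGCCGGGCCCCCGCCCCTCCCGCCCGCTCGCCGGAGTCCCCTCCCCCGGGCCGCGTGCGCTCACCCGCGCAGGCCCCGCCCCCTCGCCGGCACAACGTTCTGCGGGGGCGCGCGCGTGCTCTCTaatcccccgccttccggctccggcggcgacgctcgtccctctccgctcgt

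The windows of the family held 15 to 55 CpG dinucleotides per 300 bases over 10 windows of 8 genes. Over all 35116 RefSeq promoters the median was 14, with quartiles at 4 and 28. All windows of the family were above that median, but those of POGZ (15 and 25), JRKL (27) and TIGD7 (28) did not exceed the upper quartile. The minimal CENP-B box, searched on both strands, was absent from the window of CENPB itself. It was found in 1 of the 2 windows of POGZ (chr1:151459130-151459429, minus strand), which lies inside the annotated gene. The other POGZ window, which spans the annotated start at 151459494, holds no match. Over all promoters, not matched for CpG content, 24 of the 35116, or 0.0683%, hold a match. The POGZ window is shown for that reason, with the 15 bases of the match in capitals, which read TTCGAGTGATTCGGG on the opposite strand.
POGZ: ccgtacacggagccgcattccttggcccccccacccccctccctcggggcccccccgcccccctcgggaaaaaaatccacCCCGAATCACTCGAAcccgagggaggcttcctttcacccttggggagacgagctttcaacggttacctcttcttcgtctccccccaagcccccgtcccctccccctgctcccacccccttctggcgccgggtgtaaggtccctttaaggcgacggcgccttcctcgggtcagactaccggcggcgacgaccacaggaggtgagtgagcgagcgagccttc
The E-box CACGTG, also searched on both strands, was found in the window of POGK and in 1 of the 2 windows of TIGD2, against 7.26% of all promoters. A match of letters is a description of the sequence and not evidence that a factor is bound.

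POGK itself was the check of the labels. Its counts were 26565, 28258 and 23128 in POGK libraries, against 1555, 2423 and 1987 in control libraries. Scaled to library size with TMM factors (CPM, counts scaled to a library of fixed size), POGK stood at 743, 781 and 780 in POGK libraries, against 62.6, 77.3 and 66.9 in control libraries. Every POGK library was far above every control library, as the labels require, and control cells were not devoid of POGK. POGK averaged 768 ± 22.0 CPM in POGK cells and 69.0 ± 7.58 CPM in control cells (SD, n = 3 each), which is 11.1-fold. On the log2 scale this was 3.48, with a standard error (SE) of 0.10 and an adjusted p, from edgeR's quasi-likelihood test, of 3.56e-07. POGK took 0.0789% to 0.0839% of all counts in POGK libraries and 0.00553% to 0.00741% in control libraries. Reads of the introduced copy and of the cells' own gene were not separated in these counts.

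The total counts ran from 27645789 to 33689230 per library, and 15889 genes passed the filter on low counts, all 10 members among them. The POGK libraries differed little from each other and the control libraries more, and 9 of the 10 members shared that pattern. Their coefficient of variation was 2.26% to 7.44% in POGK libraries and 6.64% to 20.6% in control libraries, with TIGD2 as the exception. VIM, CD44, AXL and CAV1, markers of mesenchymal-like breast cancer cells, summed to 5000 to 5060 CPM in POGK libraries and 6900 to 8460 CPM in control libraries. They did not move as one: VIM and CD44 fell with log2 fold changes of -0.83 and -0.26, and AXL and CAV1 rose with 0.32 and 0.81. Most of the sum was VIM, at 3340 CPM in POGK cells and 5960 CPM in control cells. ESR1 and EPCAM together were at most 0.447 CPM in POGK libraries and 0.539 CPM in control libraries. PGR and CDH1 were absent by name from the deposited counts. Of 7 markers of blood and endothelial cells, PTPRC and PECAM1 were in the table, at a sum of 5.39 to 5.86 CPM in POGK libraries and 4.79 to 6.70 CPM in control libraries. PTPRC, a leukocyte marker, rose, with 1.66 ± 0.30 CPM in POGK cells and 0.53 ± 0.22 CPM in control cells (SD, n = 3 each, edgeR adjusted p = 0.00148). PECAM1, an endothelial marker, fell, with 3.97 ± 0.09 CPM in POGK cells and 5.18 ± 0.82 CPM in control cells (edgeR adjusted p = 0.0433). The part of other cells in the results was not tested.

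Of the 10 family members, 5 were higher in POGK cells at an adjusted p below 0.05 (POGK, TIGD7, TIGD1, CENPB and JRKL), 2 were lower (TIGD5 and TIGD2) and 3 did not pass (JRK, POGZ and TIGD6). Over all genes tested, 66% were called, 32.7% higher and 33.3% lower, so 7 called of 10 is near the background. That count includes POGK, the introduced gene. Of the 9 members other than POGK, 4 were higher and 2 lower. The median log2 fold change of the 9 members other than POGK was -0.05, in a range from -0.93 for TIGD5 to 1.54 for TIGD7, and that of all genes tested was 0.002. For 8 of the 10 the CPM values of POGK and control libraries were fully separate, against 73.7% of all genes tested. In the authors' deposited table, 7 of the 10 members have an adjusted p below 0.05.

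**Figure D1:**
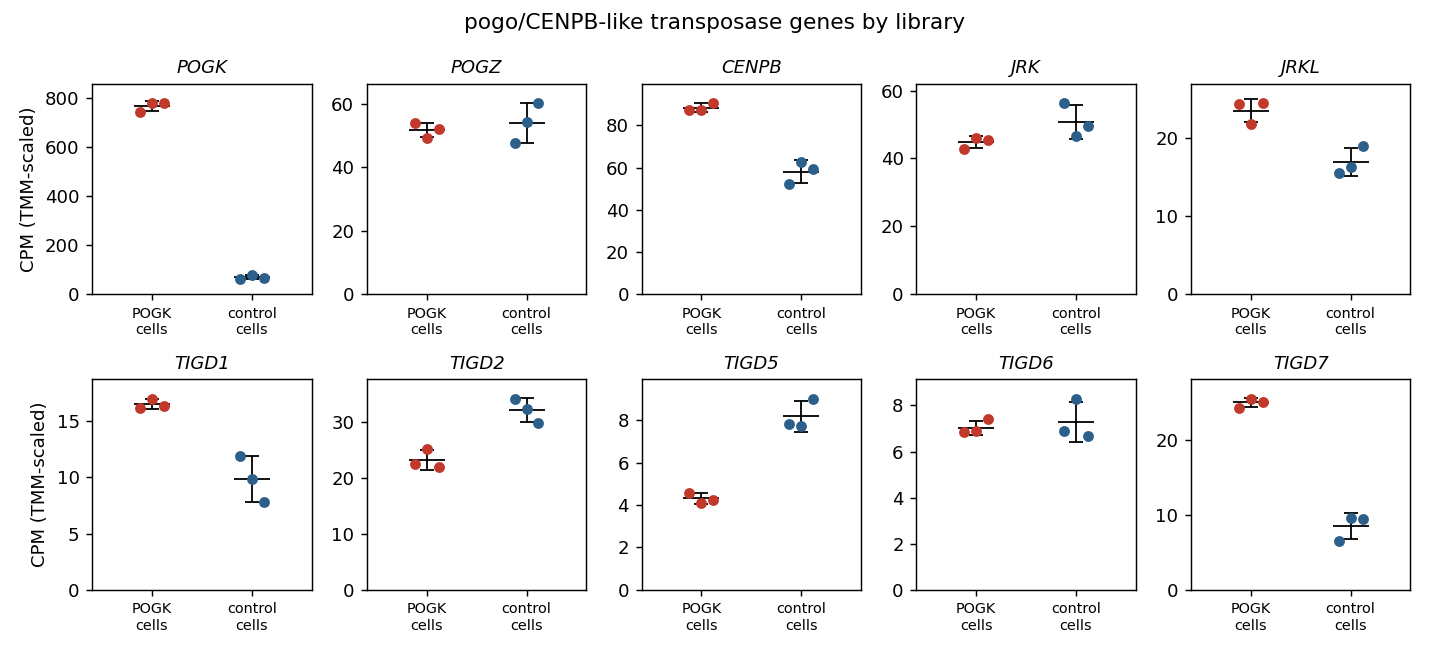
CPM (TMM-scaled counts, linear axes from 0) of each of the 10 genes in every library, POGK cells in red and control cells in blue, with the mean and SD of 3 libraries as bars. The points of the groups are separate for all genes other than POGZ and TIGD6. TIGD5 and TIGD2 are the called genes with lower POGK libraries, and JRK, which did not pass, is separated only narrowly.

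TIGD7 showed the largest difference after POGK. Its level was 24.3, 25.5 and 25.0 CPM in POGK libraries, against 6.56, 9.58 and 9.43 CPM in control libraries. The groups were far apart, and control replicate 1 was the lowest. TIGD7 averaged 25.0 ± 0.60 CPM in POGK cells and 8.52 ± 1.70 CPM in control cells (SD, n = 3 each), a 2.93-fold rise, and its log2 fold change was 1.54 (SE 0.14, edgeR adjusted p = 3.03e-05). Of its 4140 exon bases, 2296 (55.5%) lie across from exons of ZNF263, a zinc finger gene on the opposite strand, and 243 across from ZNF75A. ZNF263 fell, with 28.6 ± 1.28 CPM in POGK cells and 43.7 ± 7.50 CPM in control cells (edgeR adjusted p = 0.00216). ZNF75A rose 2.73-fold, a log2 fold change of 1.43. The strand setting of the counting is not given in the sources used here, so how reads of the shared bases were assigned is not known.

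TIGD1 had 16.2, 17.0 and 16.3 CPM in POGK libraries, against 11.9, 9.86 and 7.82 CPM in control libraries. All 3 POGK libraries were above all control libraries, which were themselves spread widely. It rose 1.67-fold, and its log2 fold change was 0.75 (SE 0.15, edgeR adjusted p = 0.00173). Of its exon bases, 43.7% lie across from exons of CHRNG on the opposite strand, a gene absent from the deposited counts.

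CENPB, which encodes the protein bound to the CENP-B box of centromeres, had the highest level of the family per length in control cells. It stood at 87.1, 87.4 and 90.7 CPM in POGK libraries, against 52.3, 62.6 and 59.4 CPM in control libraries. The POGK libraries were all above the control libraries, and control replicate 1 was again the lowest. CENPB rose 1.52-fold, and its log2 fold change was 0.60 (SE 0.08, edgeR adjusted p = 1.94e-04). No other annotated gene overlaps its exons, and none of its 2841 stretches of 50 bases occurs in a transcript of another gene.

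JRKL had 24.3, 21.8 and 24.5 CPM in POGK libraries, against 15.5, 16.3 and 19.0 CPM in control libraries. The groups did not overlap, though POGK replicate 2 and control replicate 3 came close. The rise was 1.39-fold, and its log2 fold change was 0.47 (SE 0.11, edgeR adjusted p = 0.00358). Its relative JRK did not follow it. JRK had 42.9, 46.0 and 45.5 CPM in POGK libraries, against 56.4, 46.6 and 49.5 CPM in control libraries. The groups were separated only narrowly, between POGK replicate 2 and control replicate 2. The log2 fold change of JRK, -0.18, did not pass (SE 0.09, edgeR adjusted p = 0.0933). Without control replicate 2 it was -0.24 and passed (edgeR adjusted p = 0.0252).

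TIGD5 fell the most. It had 164, 148 and 126 counts in POGK libraries, against 194, 242 and 268 in control libraries, which is 4.58, 4.09 and 4.25 CPM in POGK libraries against 7.81, 7.72 and 9.03 CPM in control libraries. The groups were clearly apart, at low counts. Its log2 fold change was -0.93 (SE 0.13, edgeR adjusted p = 2.28e-04). TIGD5 shares 261 exon bases with EEF1D and 15 with PYCR3, both on the opposite strand. EEF1D, a translation elongation factor subunit, stood far above TIGD5, at 213 ± 3.57 CPM in POGK cells and 353 ± 44.6 CPM in control cells. EEF1D fell with a log2 fold change of -0.73, and PYCR3, a proline synthesis enzyme, rose with one of 1.42. How reads of the bases shared with TIGD5 were assigned is not known, since the strand setting is not stated.

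TIGD2 was lower as well, with 22.5, 25.1 and 21.9 CPM in POGK libraries, against 34.2, 32.3 and 29.9 CPM in control libraries. No library of one group reached into the other. Its log2 fold change was -0.47 (SE 0.09, edgeR adjusted p = 0.00176).

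POGZ had 53.9, 49.4 and 52.1 CPM in POGK libraries, against 47.7, 54.2 and 60.4 CPM in control libraries. The POGK libraries lay within the range of the control libraries. Its log2 fold change was -0.06 and did not pass (SE 0.09, edgeR adjusted p = 0.567). TIGD6 had 6.85, 6.88 and 7.39 CPM in POGK libraries, against 6.88, 8.30 and 6.67 CPM in control libraries. These values overlapped too, and its log2 fold change of -0.05 did not pass (SE 0.13, edgeR adjusted p = 0.734). Library size alone as scaling moved the median log2 fold change over all genes to 0.194, and JRK, POGZ and TIGD6 then stood at 0.02, 0.12 and 0.14, above 0 but below that median. POGZ also turned in sign without control replicate 3 and TIGD6 without control replicate 2, while JRK stayed negative with any 1 library left out.

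**Figure D2:**
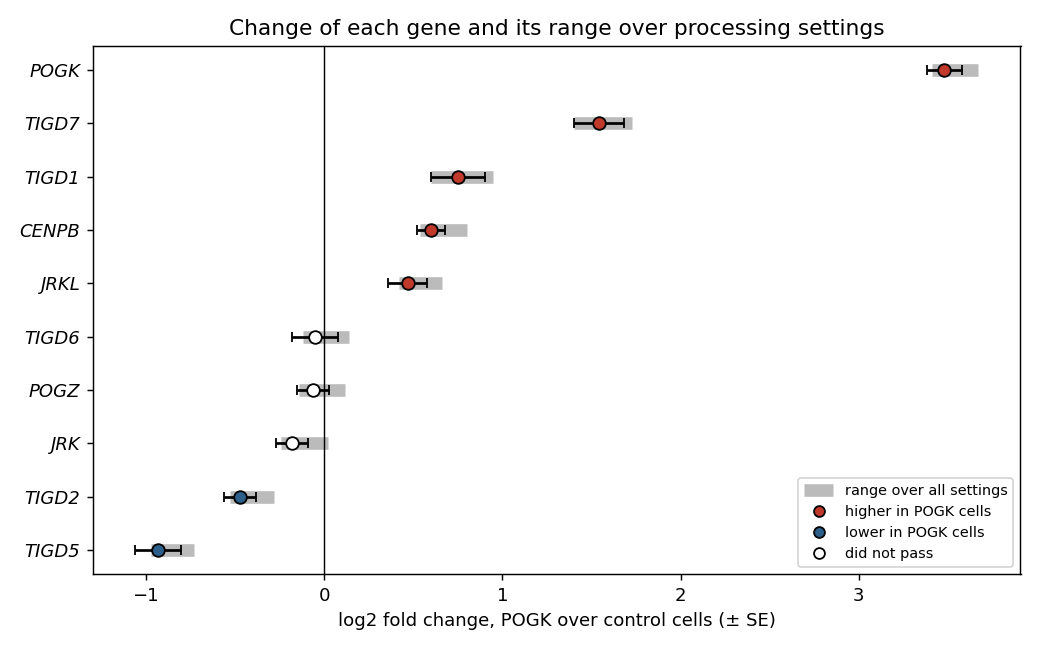
Log2 fold change of POGK over control cells with its standard error for each of the 10 genes, ordered by size, with filled points for genes that passed the edgeR test and grey bars for the range over all processing settings. The bars of JRK (with library size alone as scaling), POGZ and TIGD6 reach across 0 and those of the 7 called genes stay on one side, with TIGD2 nearest to 0 at -0.28.

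Levels of different genes were compared per kilobase of exon (RPKM), over all annotated exons of a gene. Which of these exons the introduced POGK copy holds was not examined. TIGD7 and TIGD1 share 55.5% and 43.7% of their exon bases with a gene on the opposite strand. With the strand setting not stated, their places in the order are less certain. The same holds for TIGD5, which shares 261 exon bases with the far higher EEF1D. In POGK cells the order was POGK with 90.7 ± 2.60 RPKM, CENPB with 30.6 ± 0.69, TIGD2 with 7.27 ± 0.54, JRKL with 6.17 ± 0.39, TIGD7 with 6.03 ± 0.14, POGZ with 4.25 ± 0.19, JRK with 3.99 ± 0.15, TIGD1 with 2.47 ± 0.07, TIGD6 with 1.71 ± 0.07 and TIGD5 with 0.80 ± 0.05 (SD, n = 3). JRKL and TIGD7, and POGZ and JRK, overlapped in range and cannot be ordered. In control cells CENPB led with 20.1 ± 1.83 RPKM, ahead of TIGD2 with 10.1 ± 0.67 and POGK with 8.15 ± 0.90. JRK, POGZ and JRKL followed at 4.53, 4.44 and 4.44 RPKM with overlapping ranges, and TIGD7, TIGD6, TIGD5 and TIGD1 lay between 2.06 and 1.48 RPKM, each overlapping the next. POGK thus had rank 1 of 10 in POGK cells and rank 3 in control cells, and it took 73.0% of the family's counts in POGK cells and 21.9% in control cells. The other 9 members together summed to 285 ± 2.76 CPM in POGK cells and 246 ± 6.13 CPM in control cells.

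**Figure D3:**
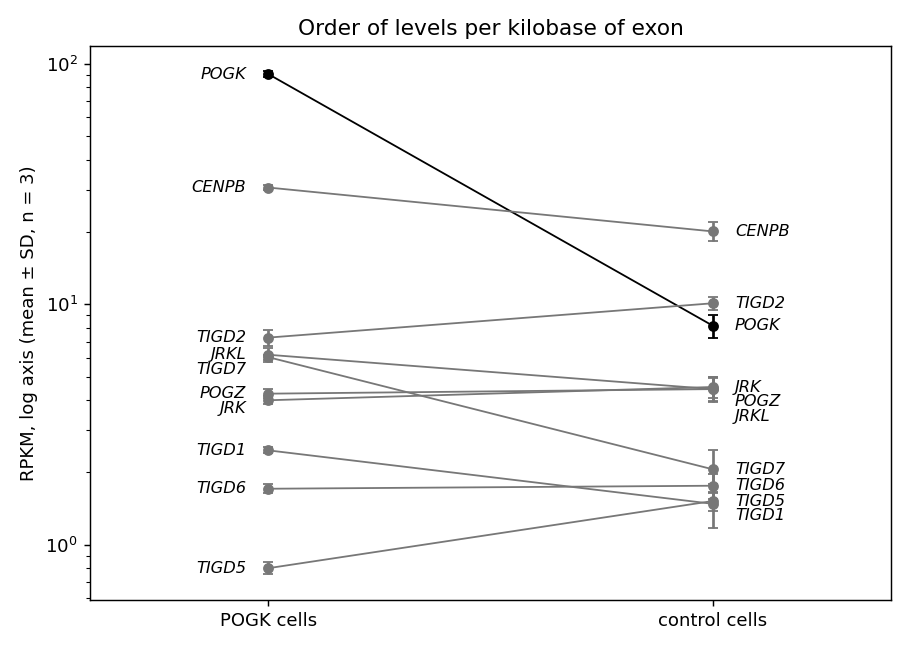
Mean RPKM with SD (n = 3) of each gene in POGK cells and control cells on a log axis, joined by a line per gene. POGK goes to the top in POGK cells at 90.7 RPKM, against 8.15 RPKM in control cells, while CENPB and TIGD2 stay above all other members besides POGK in both groups.

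The genes that face a family member across a shared start region, without overlapping it, did not all take its direction. CDC25B, a phosphatase that drives entry into mitosis, had 333 ± 3.20 CPM in POGK cells and 426 ± 23.6 CPM in control cells, a log2 fold change of -0.36 (edgeR adjusted p = 0.00203), where CENPB rose. CCDC82 did not pass, at 34.8 ± 0.31 CPM in POGK cells and 33.9 ± 4.23 CPM in control cells (edgeR adjusted p = 0.774), where JRKL rose. EIF4E2, a cap-binding protein that represses translation, rose 1.27-fold, as TIGD1 did. FAM13A fell with a log2 fold change of -0.71, as TIGD2 did. The difference between the genes of a pair was not tested. TADA1, a subunit of the SAGA complex whose 3′ end lies 151 bases from that of POGK, had 16.7 ± 0.95 CPM in POGK cells and 18.3 ± 1.12 CPM in control cells and did not pass (edgeR adjusted p = 0.244). FAM78B, the nearest protein-coding gene on the other side of POGK at 672446 bases, was lower, but at low counts. FAM78B had 7, 7 and 3 counts in POGK libraries and 11, 18 and 14 in control libraries. This was 0.16 ± 0.05 CPM in POGK cells and 0.50 ± 0.07 CPM in control cells (edgeR adjusted p = 0.00407). PSMB4, a proteasome subunit next to POGZ, did not pass either, at 197 ± 5.66 CPM in POGK cells and 207 ± 13.0 CPM in control cells. Next to TIGD5, GFUS and NAPRT rose 1.78-fold and 1.97-fold, and next to JRK, LY6K rose 3.42-fold. NAPRT was at a low level, with 1.87 ± 0.36 CPM in POGK cells and 0.95 ± 0.21 CPM in control cells. CNTN5, a neuronal adhesion protein gene 2513375 bases from JRKL, fell, with 0.26 ± 0.05 CPM in POGK cells and 2.95 ± 0.42 CPM in control cells (edgeR adjusted p = 9.91e-06). On the sides of TIGD6, PDE6A fell with a log2 fold change of -1.14 and CSF1R rose 1.93-fold, both at low levels. The CSF1R values of POGK and control libraries overlapped, and its edgeR adjusted p of 0.0468 was near the threshold. Of the 13 nearest neighbours tested, 5 were higher, 5 lower and 3 did not pass. Over all genes tested, 32.7% were higher and 33.3% lower, so calls among neighbours are common by background alone. HMGXB3 and SLC26A2, whose exons lie across from those of TIGD6, rose 1.20-fold and 1.47-fold, and PSCA, across from JRK, rose 1.71-fold. PSCA was also low, with 1.66 ± 0.38 CPM in POGK cells and 0.97 ± 0.28 CPM in control cells (edgeR adjusted p = 0.0307).

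**Figure D4:**
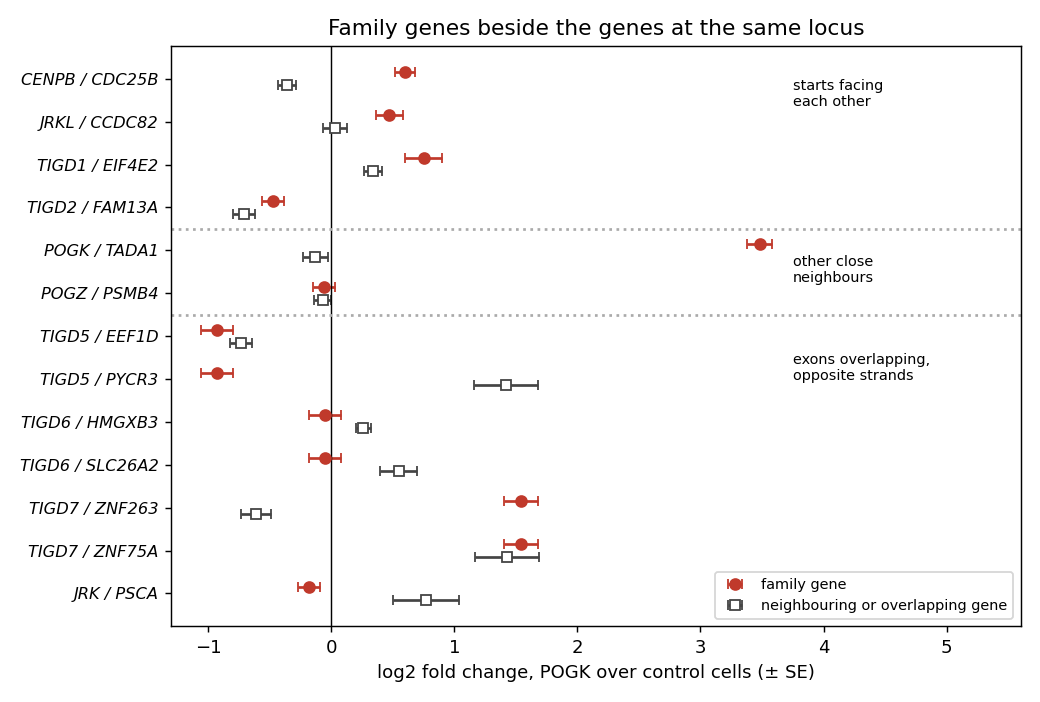
Log2 fold change of POGK over control cells with its standard error for family genes (red circles) and for a gene at the same locus (open squares), grouped by facing starts, other close neighbours and exons overlapping on opposite strands. CENPB and CDC25B fall on opposite sides of 0, as do TIGD7 and ZNF263, while TIGD2 and FAM13A are both below 0.

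The remaining relatives of the family were few. TIGD4 rose 1.82-fold, with 0.99 ± 0.24 CPM in POGK cells and 0.54 ± 0.10 CPM in control cells (edgeR adjusted p = 0.0216). SETMAR, a fusion of a histone methyltransferase with a mariner transposase, rose 1.90-fold, to 9.79 ± 0.44 CPM in POGK cells against 5.15 ± 1.45 CPM in control cells (edgeR adjusted p = 0.00196). TIGD4 lost its call without POGK replicate 1 or 2 or control replicate 1, and with DESeq2 and with a spread per group, at edgeR, DESeq2 or limma adjusted p-values of 0.0536 to 0.142, and a filter of 1 CPM removed it. TIGD3 was too low to be tested, at 0.25 ± 0.06 CPM in POGK cells and 0.26 ± 0.11 CPM in control cells.

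Genes that descend from other transposon families (hAT, piggyBac, P element, Harbinger and Transib) were a mixed group, with 8 of 17 tested higher, 3 lower and 6 that did not pass, or 64.7% called against 66% of all genes. Their median log2 fold change was 0.31. The 3 with the smallest adjusted p were ZBED4, ZBED8 and PGBD1. ZBED4 had 72.4 ± 1.64 CPM in POGK cells and 51.5 ± 3.64 CPM in control cells. ZBED8 rose 1.89-fold and PGBD1, a piggyBac relative, 1.51-fold. Without POGK replicate 2, 5 of the list were higher. Genes with a THAP domain, the DNA-binding module shared with the P element transposase, had 6 of 11 higher and 3 lower, or 81.8% called, with a median of 0.18. Among them THAP12 rose 1.76-fold, while THAP3 and THAP8 fell with log2 fold changes of -0.84 and -1.69.

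The genes of proteins that work beside CENPB at centromeres were mostly higher. Of 21, 18 rose, none fell and 3 did not pass (CENPA, CENPL and CENPT), with a median log2 fold change of 0.76 against 0.002 over all genes, and 32.7% of all genes were higher. CENPI, a subunit of the inner kinetochore, rose 3.46-fold, to 61.1 ± 2.06 CPM in POGK cells against 17.7 ± 4.01 CPM in control cells (edgeR adjusted p = 1.90e-05). CENPN, which reads the centromeric nucleosome, rose 1.80-fold. CENPA, the centromeric histone, had 33.7 ± 1.07 CPM in POGK cells and 25.9 ± 6.39 CPM in control cells and did not pass (edgeR adjusted p = 0.0533). The list summed to 826 to 835 CPM in POGK libraries and 470 to 588 CPM in control libraries, without overlap.

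Of 8 genes whose proteins bind or work with POGZ, 5 rose and none fell, or 62.5% called, near the 66% of all genes. Their median log2 fold change was 0.35, and ADNP, HDGFL2 and MAD2L2 did not pass. CHAMP1, a partner in chromosome alignment, rose 2.36-fold, to 97.6 ± 2.06 CPM in POGK cells against 41.3 ± 10.2 CPM in control cells. The HP1 genes CBX5 and CBX3 rose 1.53-fold and 1.33-fold. Without control replicate 1, 1 of the 8 fell. Of 7 genes of the KRAB corepressor and the HUSH complex, which silences DNA together with SETDB1, 4 rose and 1 fell, or 71.4% called, also near the background, with a median of 0.32. MORC2 and PPHLN1 rose 1.62-fold and 1.71-fold, and ATF7IP, the partner of SETDB1, fell with a log2 fold change of -0.66. The lower calls numbered 3 when control replicate 1 was left out and 2 when control replicate 2 was, and also 2 under limma-voom, a filter of 1 CPM, or testing protein-coding genes only. Of 4 tested genes with a KRAB domain and no zinc fingers, as in POGK, KRBOX1 rose to 0.60 ± 0.25 CPM in POGK cells against 0.16 ± 0.10 CPM in control cells, and KRBA2 and KRBOX4 did not pass. KRBOX1 had only 13, 31 and 17 counts in POGK libraries and 1, 7 and 6 in control libraries, its call was lost with a spread per group, and a filter of 1 CPM removed it. KRBA1 had a log2 fold change of -0.36 (edgeR adjusted p = 0.0310), a call that was lost without any 1 POGK replicate, without control replicate 2 or 3, with library size alone, with the replicate block and with a spread per group.

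**Figure D5:**
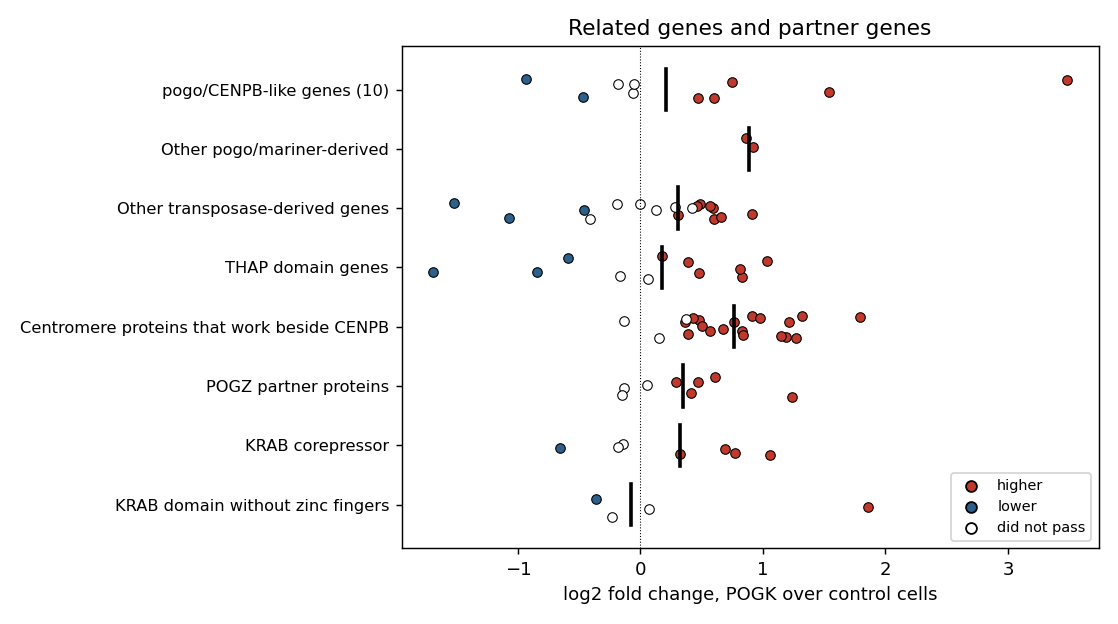
Log2 fold change of POGK over control cells for every tested gene of the family and of the 7 lists, red where higher, blue where lower and white where the edgeR test was not passed, with the list's median as a black bar (points are spread vertically for legibility). The centromere list has 18 of 21 genes in red and a median of 0.76, whereas the family and the lists of other transposase-derived and THAP genes lie on both sides of 0.

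Across the 6 libraries, the genes whose log2 CPM followed POGK most closely, among 11934 protein-coding genes averaging 1 CPM or more, were CDH11, KIF1C and WRAP53. CDH11 is a mesenchymal cadherin, KIF1C a motor protein, and WRAP53 carries RNAs to Cajal bodies. Their Pearson correlations were all above 0.99, as were those of 423 genes, or 3.54% of the candidates. Over 3 libraries against 3, any gene with a large difference between the groups and little spread within them reaches such a value. Within the family, CENPB and TIGD7 had a correlation of 0.98 with POGK, JRKL 0.92 and TIGD1 0.90, and TIGD5 and TIGD2 had -0.98 and -0.94. JRK stood at -0.74, POGZ at -0.25 and TIGD6 at -0.16.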

How the data were processed

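The 6 libraries were made from ribosomal RNA-depleted total RNA and aligned to hg38, per the labels' protocols. Trimmomatic, STAR, SAMtools, deepTools and featureCounts appear without versions among the tools in the submitters' processing notes. Neither the gene annotation nor the strand setting is stated. The authors deposited raw counts per Ensembl gene, a signal column per library (counts divided by a size factor), and their own log2 fold change, standard error, test score and p-value, whose tool is not stated. The lowest row total was 21. Only the counts were tested.

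Testing used edgeR 4.0.16 (R 4.3.3), quasi-likelihood and robust, with TMM scaling, edgeR's default filter and Benjamini-Hochberg adjustment over 15889 genes. A call needed an adjusted p under 0.05. SEs came from the F statistic. The test fits 1 spread per gene to both groups. RPKM used the union exon length of GENCODE release 44, which matched 18264 identifiers. The script was tested on simulated data. Between libraries of 1 group, chi-square per gene was 1.36 to 2.62 (POGK) and 22.5 to 49.7 (control), above sampling noise, so all 6 were kept, although this does not show separate cultures.

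Members and lists were chosen with earlier results of these data known. Named genes were all members, the 3 genes with the smallest adjusted p of each list, the nearest protein-coding genes on both sides of each member, genes with overlapping exons and the 3 closest correlates of POGK. For 1 gene that this rule names, the result is not reported here. CENPA, CENPL, CENPT, TIGD3, KRBA2, ADNP, HDGFL2 and MAD2L2 were named after their values were seen. The other settings were DESeq2 1.42.0, limma-voom (limma 3.58.1), DESeq2-style size factors, library size alone, no filter, 1 CPM in 3 libraries, only protein-coding genes, a replicate block, and leaving out 1 library at a time. A limma-voom fit with a spread per group was added after seeing the data.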

Additional observations from a re-analysis of the deposited data

How the results depend on the processing

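The numbers of family members called, 5 higher and 2 lower, were the same under every alternative run, other than without control replicate 2, where JRK passed and 3 were lower (range 2 to 3 with 1 library left out). The 7 called members kept their direction and call throughout. The log2 fold change of POGK ranged from 3.41 to 3.67. With library size alone, the log2 fold change of POGZ was 0.12, that of JRK 0.02 and that of TIGD6 0.14, in place of negative values, and none passed; the whole scale moved by 0.194 there, and 62.6% of all calls were higher, against 49.6% with TMM scaling. With 1 library left out, the log2 fold change lay between -0.14 and 0.02 for POGZ (positive without control replicate 3), between -0.12 and 0.06 for TIGD6 (positive without control replicate 2) and between -0.24 and -0.10 for JRK. With the replicate number as a block, 5 members were higher and 2 lower, and the log2 fold change of POGK was 3.48; same-numbered libraries had correlations of deviations of 0.087, 0.041 and 0.0028, so the numbers were not taken as pairs. The block gave 5136 higher and 5103 lower genes over the whole table, against 5202 and 5285 without it. Over all 7 lists together, 8 genes were lower, and 12 without control replicate 1, a move of 1.5 times; the higher count over these lists and both counts over all genes moved by less under every alternative run. The low counts of TIGD5, TIGD6, TIGD4, KRBOX1, FAM78B, NAPRT, PSCA, PDE6A and CSF1R limit what can be seen of small differences there.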
